A study of Mus musculus with 16 samples.

Results

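miR-219 and miR-338, the microRNAs (miRNAs) that mark oligodendrocytes, were measured as 4 mature miRNA rows among the 18488 features of a small RNA sequencing table from mouse prefrontal cortex. The rows were chosen by name, and are mmu-miR-219a-5p, mmu-miR-219a-2-3p, mmu-miR-338-3p and mmu-miR-338-5p, 4 of the 1241 mature miRNA rows of the table. The study asked which non-coding RNAs differ in abundance with tauopathy, and compared 8 PS19 mice with 8 wild-type (WT) littermates in about the tenth month of life, with equal numbers of males and females in each group per its methods. PS19 mice (PS19+/-) were heterozygous for a mutant human MAPT (tau) transgene driven by the mouse prion promoter, and WT mice lacked it. RNA came from a piece of frozen cortex of about 10 mg per mouse, from which other brain regions had been dissected away, and the amount of white matter in each piece was not stated.

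Oligodendrocytes wrap axons in myelin, and they arise from precursor cells that continue to divide in the adult brain. A miRNA gene is transcribed as a hairpin, which is cut to release a 5p arm and a 3p arm, and the arm that enters an Argonaute protein pairs through its seed with messenger RNAs and lowers their output. miR-219 and miR-338 increase as precursors become oligodendrocytes and repress genes that keep precursors dividing, among them Pdgfra, Sox6 and Hes5, and loss of miR-219 impairs myelination. miR-219a-5p and miR-338-3p are the arms through which this repression is usually described.

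The mature sequences below are shown because the arms of a hairpin were counted separately and have different seeds. They are written 5′ to 3′ as listed by RefSeq for GRCm38.p6, with the seed (bases 2 to 8) in capitals.

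miR-219a-5p: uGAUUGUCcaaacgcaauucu

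miR-338-5p: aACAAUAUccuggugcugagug

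miR-338-3p: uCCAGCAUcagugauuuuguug

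miR-219a-1-3p: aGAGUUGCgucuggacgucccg

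Each of these 4 seeds was carried by 0 other names among the 1679 mature mouse names of the same reference. The hairpins are shown next, since miR-219a-5p is encoded in 2 of them. Capitals mark the arms given above.

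Mir219a-2: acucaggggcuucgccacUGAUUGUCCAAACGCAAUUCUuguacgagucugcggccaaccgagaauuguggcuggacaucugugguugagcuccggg

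Mir219a-1: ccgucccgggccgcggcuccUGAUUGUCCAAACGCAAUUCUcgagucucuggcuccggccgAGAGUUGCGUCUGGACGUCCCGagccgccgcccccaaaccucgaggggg

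Mir338: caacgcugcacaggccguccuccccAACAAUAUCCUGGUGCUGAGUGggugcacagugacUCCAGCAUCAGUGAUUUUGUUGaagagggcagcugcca

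Mir219a-2 lies on the minus strand at chr2:29845631-29845727 and overlaps no other gene on its own strand. Mir219a-1 lies on the minus strand at chr17:34024983-34025092, where it overlaps an exon of the lincRNA gene Gm26940. Mir338 lies on the minus strand at chr11:120014765-120014862, in an intron of all 6 overlapping transcripts of Aatk, which encodes a kinase. On the other strand, Mir219b is the reverse complement of part of Mir219a-2 and covers 21 of the 21 bases of miR-219a-5p there, and Mir219c stands in the same relation to Mir219a-1 and covers 20 of the 21. Whether the counting used strand is not given in the sources used here, so that reads of miR-219a-5p and of these partners may not have been told apart.

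Each library held between 13.2 M and 23.1 M recovered reads, on average 16.9 M ± 2.72 (SD, n = 8) for PS19 compared to 18.3 M ± 3.39 (SD, n = 8) for WT. Mature miRNA rows held 17.9% to 32.0% of the signal in PS19 libraries and 14.8% to 32.0% in WT. All 8 PS19 libraries had a code that began with G, as had 2 WT libraries, whereas 4 WT codes began with F and 2 with A, and the sources used here do not say what this letter means. The values below are normalized counts, that is, read counts that the authors divided by 1 size factor per library, unless another scale is named.

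The 4 miRNAs differed widely in level, and their order was the same in all 16 libraries. miR-219a-2-3p was the most abundant, with a mean of 30515 normalized counts, which ranked 28 among the 1241 mature miRNA rows. miR-338-5p followed with 924 normalized counts (rank 130) and miR-338-3p with 66.2 (rank 287). miR-219a-5p had 4.28 normalized counts (rank 539), from 0 to 10 reads per library. The ranges of neighbours in this order did not overlap over the 16 libraries. Nearly all reads of the 4 miRNAs were those of miR-219a-2-3p, which made up 0.724% of mature miRNA reads, while miR-338-5p made up 0.0214%.

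**Figure D1:**
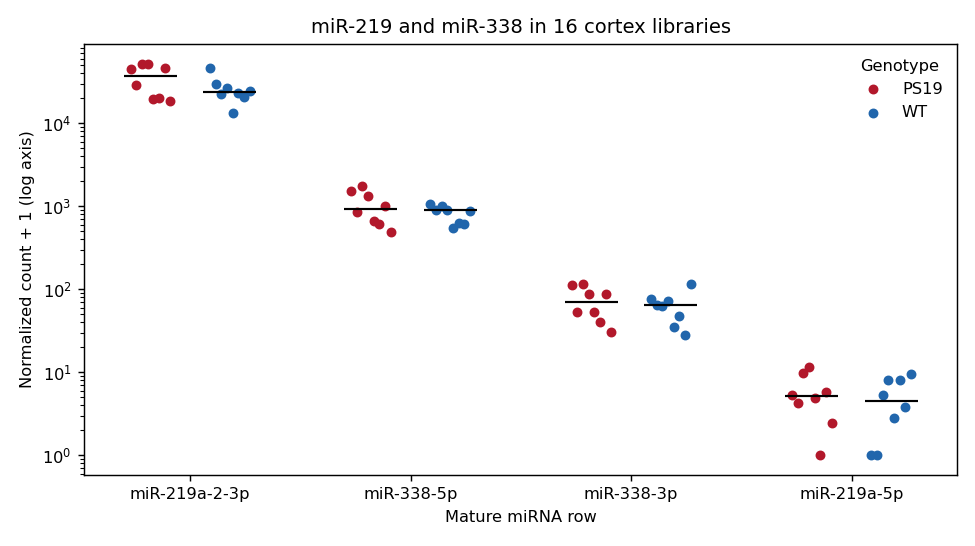
Normalized counts + 1 (log axis) of the 4 miRNAs in each of the 8 PS19 and 8 WT libraries; points are libraries in order of replicate number and bars are medians. The 4 miRNAs sit at separate levels, while the genotypes overlap within each, and points at 1 are libraries with a count of 0.

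In both hairpins the more abundant arm was not the one through which repression is usually described. miR-219a-2-3p was 7134-fold above miR-219a-5p, which placed the pair 12 from the top of 158 hairpins with a summed level of at least 100 when ordered by how unequal their arms were. miR-338-5p was 13.95-fold above miR-338-3p, at place 111 in the same order. Over the 158 hairpins the median of the absolute log2 ratio between arms was 6.17, against 12.5 for miR-219a-2 and 3.78 for miR-338. These are ratios of reads and not of molecules.

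The arm ratio of miR-338 had the same mean in both genotypes, with 14.7 ± 1.77 (SD, n = 8) reads of miR-338-5p per read of miR-338-3p in PS19 compared to 14.7 ± 4.21 (SD, n = 8) in WT. It ranged from 11.8 to 16.9 in PS19 and, more widely, from 7.77 to 22.8 in WT. The log2 ratio of miR-219a-2-3p to miR-219a-5p, taken on value + 1, was 12.8 ± 0.72 (SD, n = 8) in PS19 compared to 12.7 ± 1.58 (SD, n = 8) in WT. No test was made of these ratios, and their ranges overlapped.

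The low count of miR-219a-5p was set beside that of other miRNAs with more than 1 locus. The 44 mature names encoded at more than 1 locus had a median level of 118 normalized counts, and 17 of them, or 38.6%, had a mean under 5. The 1025 names encoded at 1 locus had a median of 2.26, and 594 of them, or 58.0%, had a mean under 5. miR-219a-5p was at place 29 of the 44. Of the 41 mature names overlapped by a mature miRNA on the other strand, 21, or 51.2%, had a mean under 5, and miR-219a-5p was at place 23. Whether either property played a part in its count was not tested.

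The difference between the genotypes was then examined for each miRNA. None of the 3 miRNAs with a mean of at least 5 normalized counts passed the test, at an adjusted or an unadjusted p under 0.05. Of all 6024 features tested, 0 had an adjusted p under 0.05 by limma and 241, or 4%, an unadjusted one, with 112, or 1.86%, both called and higher in PS19. DESeq2 called 15 features at an adjusted p under 0.05, with none of the 4 miRNAs among them. Among the 521 mature miRNA rows tested, 15, or 2.88%, had an unadjusted p under 0.05, and 4 of these, or 0.768% of the rows tested, were higher in PS19.

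miR-219a-2-3p, the most abundant arm, ran from 18492 over a median of 36624 to 52218 normalized counts in PS19. In WT it ran from 13331 over a median of 23854 to 46439. PS19 replicates 3 and 4 stood above every WT library and WT replicate 5 stood below every PS19 library, while the other libraries overlapped. The means were 35230 ± 14950 (SD, n = 8) in PS19 compared to 25800 ± 9568 (SD, n = 8) in WT, a log2 difference of 0.40 ± 0.27 (SE) with a 95% interval from −0.16 to 0.96, or 1.32-fold from 0.895 to 1.95. The difference was within the spread between mice (limma, p = 0.152, adjusted p = 0.9998, and exact permutation test, p = 0.190).

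miR-338-5p ranged from 493 to 1762 normalized counts in PS19 with a median of 927. In WT it ranged from 545 to 1071 with a median of 889. PS19 replicates 1, 3 and 4 stood above every WT library and PS19 replicate 8 stood below every one. The means were 1030 ± 466 (SD, n = 8) and 818 ± 197 (SD, n = 8), a log2 difference of 0.24 ± 0.26 (SE) with a 95% interval from −0.31 to 0.78, or 1.18-fold from 0.808 to 1.72 (limma, p = 0.374, adjusted p = 0.9998, and exact permutation test, p = 0.388).

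miR-338-3p, the other arm of that hairpin, ranged from 29.3 to 114.3 normalized counts in PS19 with a median of 68.9. In WT it ranged from 26.9 to 112.9 with a median of 62.6, so that the groups overlapped almost completely. The log2 difference was 0.19 ± 0.32 (SE) with a 95% interval from −0.47 to 0.85, or 1.14-fold from 0.721 to 1.81 (limma, p = 0.556, adjusted p = 0.9998, and exact permutation test, p = 0.580).

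miR-219a-5p did not reach a mean of 5 and was compared by an exact permutation test. It ranged from 0 to 10.7 normalized counts in PS19 with a median of 4.15, and from 0 to 8.398 in WT with a median of 3.55. It was at 0 in 1 PS19 and 2 WT libraries, PS19 replicates 3 and 4 stood above every WT library, and the other libraries overlapped. The log2 difference of 0.30 was within the spread between libraries (two-sided exact permutation test, p = 0.628).

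The 3 tested miRNAs all had a higher mean in PS19 than in WT, and their median log2 difference was 0.24. The median was −0.022 over all tested features, of which 46.8% were higher in PS19, and −0.13 over the tested mature miRNA rows, of which 33.6% were. The 4 miRNAs come from 3 loci and share libraries, so they are not independent. Since the tissue is a mixture of cells, fewer oligodendrocytes and less miRNA per oligodendrocyte could not be told apart, and the same holds for more.

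The comparison was repeated on other scales. Per 1000000 reads of the library, miR-219a-2-3p had 2054 ± 792 (SD, n = 8) in PS19 compared to 1485 ± 368 (SD, n = 8) in WT. Per 1000000 mature miRNA reads it had 8378 ± 3693 (SD, n = 8) and 6109 ± 2218 (SD, n = 8), where PS19 replicate 7 alone reached 16997. On this scale the log2 difference without that library was 0.30 (two-sided exact permutation test, p = 0.234), a setting chosen after the data were seen. With the letter of the library code in the model, the log2 differences were 0.21 for miR-219a-2-3p (95% interval −0.72 to 1.14), 0.058 for miR-338-5p (−0.83 to 0.95) and −0.068 for miR-338-3p (−1.09 to 0.95). Only 2 WT libraries shared the letter of the PS19 libraries, so the letter and the genotype largely coincided.

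**Figure D2:**
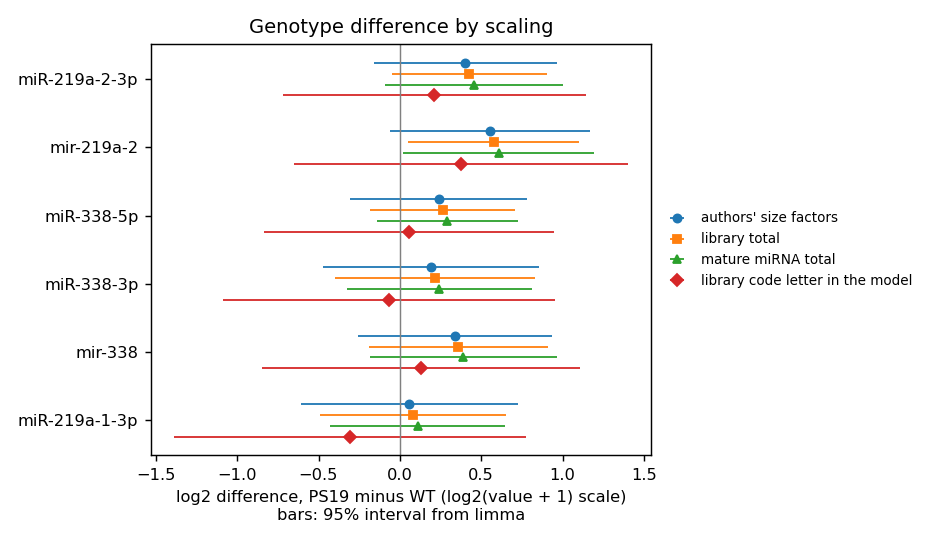
Log2 difference, PS19 minus WT, with 95% intervals from limma, for the 3 tested miRNAs and 3 other rows of the families, under 3 scalings and with the library code letter in the model. Every interval of the 3 tested miRNAs holds 0, and those with the letter in the model are the widest, from −0.72 to 1.14 for miR-219a-2-3p.

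The other rows of these families were counted as well. The precursor row mir-219a-2, which holds reads of the hairpin, had 576 ± 249 (SD, n = 8) normalized counts in PS19 compared to 390 ± 188 (SD, n = 8) in WT, a log2 difference of 0.55 ± 0.30 (SE) that did not pass (limma, p = 0.0755, adjusted p = 0.9998, and exact permutation test, p = 0.104). Scaled to the library total the unadjusted p of this row was 0.0331, and scaled to the mature miRNA total 0.0429, with adjusted p of 0.999 and 0.9996 by limma. With the code letter in the model the log2 difference of this row was 0.38, with a 95% interval from −0.65 to 1.41 (limma, adjusted p = 0.9999). It amounted to 1.64% ± 0.150 (SD, n = 8) of miR-219a-2-3p in PS19 compared to 1.48% ± 0.139 (SD, n = 8) in WT. The precursor row followed the mature arm closely, with a Pearson r of 0.98 on the log2 scale over the 16 libraries, and the files do not show whether reads of the arm were counted under both.

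The precursor row mir-338 had 36.0 ± 13.8 (SD, n = 8) normalized counts in PS19 compared to 27.8 ± 10.7 (SD, n = 8) in WT, and the log2 difference was 0.34 (limma, adjusted p = 0.9998, and exact permutation test, p = 0.252). miR-219a-1-3p, the arm from the hairpin on chromosome 17, had 34.8 ± 15.8 (SD, n = 8) and 32.5 ± 13.7 (SD, n = 8), respectively, with a log2 difference of 0.058 (limma, adjusted p = 0.9998, and exact permutation test, p = 0.865). The 3p arm from chromosome 2 was thus far more abundant than the one from chromosome 17 in both genotypes. miR-219c-5p, from the strand opposite Mir219a-1, had 0 to 3 reads per library, with a mean of 1.58 ± 1.10 (SD, n = 8) normalized counts in PS19 compared to 0.437 ± 0.672 (SD, n = 8) in WT. The exact permutation test gave a p of 0.0255, which is not adjusted for the 11 rows of the families. The rows mir-219a-1, miR-219b-5p and mir-219c had at most 2 reads in a library.

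The 3 more abundant miRNAs varied together from mouse to mouse. Over the 16 libraries, miR-219a-2-3p and miR-338-5p had a Pearson r of 0.89 and a Spearman rho of 0.91 on the log2 scale (permutation test, p = 1e-05 for each, the smallest that 100000 resamples can give, adjusted p = 3e-05 over 6 pairs). They come from different chromosomes. The 2 arms of miR-338 had an r of 0.88 and a rho of 0.88 (permutation test, p = 1e-05, adjusted p = 3e-05). For miR-219a-2-3p and miR-338-3p, r was 0.78 (permutation test, p = 0.00055, adjusted p = 0.0011) and rho was 0.81 (permutation test, p = 0.00031, adjusted p = 0.00062). Without the 2 libraries farthest from the median of the first miRNA of each pair, r was 0.84, 0.84 and 0.73.

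Within genotypes, miR-219a-2-3p and miR-338-5p had r = 0.94 in PS19 (exact permutation test, p = 0.00186, adjusted p = 0.00558) and r = 0.78 in WT (exact permutation test, p = 0.00761, adjusted p = 0.0457). The rho was 0.90 in PS19 (exact permutation test, adjusted p = 0.0129) and 0.76 in WT, where it missed the threshold after adjustment (exact permutation test, p = 0.0368, adjusted p = 0.11). Within the 10 libraries of code letter G, r was 0.93 and rho 0.94. For miR-219a-2-3p and miR-338-3p r was 0.93 in PS19 (exact permutation test, p = 0.00295, adjusted p = 0.0059) and 0.58 in WT (exact permutation test, p = 0.121, adjusted p = 0.243), while rho was closer, with 0.86 in PS19 and 0.79 in WT (exact permutation tests, adjusted p = 0.0129 and 0.11). The arms of miR-338 had r = 0.97 in PS19 and r = 0.79 in WT (exact permutation tests, adjusted p = 0.000298 and 0.0587). The difference of the correlations between genotypes was not tested.

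Part of this common variation was shared with other miRNAs. The median r with 517 other tested mature miRNA rows was 0.35 for miR-219a-2-3p, 0.56 for miR-338-5p and 0.53 for miR-338-3p. After scaling to the mature miRNA total, these medians were −0.0054, 0.02 and 0.06. On that scale the r of miR-219a-2-3p with miR-338-5p was 0.91, and 0.85 without PS19 replicate 7 (permutation test, adjusted p = 0.00042). The r of miR-219a-2-3p with miR-338-3p on that scale was 0.68, with a rho of 0.45 (permutation test, p = 0.0794), and r was 0.48 without PS19 replicate 7 (permutation test, adjusted p = 0.0895). As normalized counts, r of this pair without that library was 0.77 (permutation test, adjusted p = 0.0022). For the arms of miR-338 the values were 0.76, and 0.61 without it (permutation test, adjusted p = 0.0461).

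**Figure D3:**
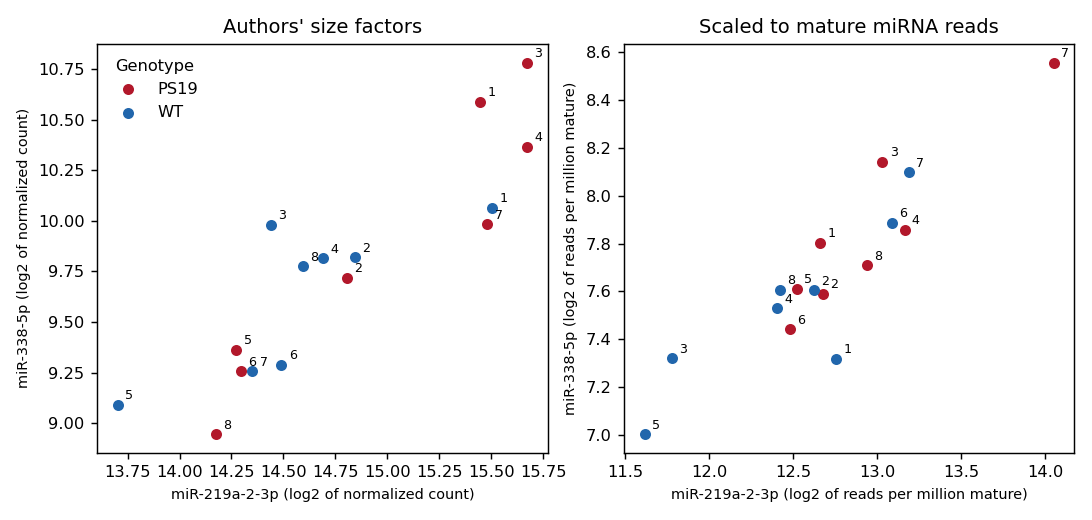
Log2 levels of miR-219a-2-3p (x) and miR-338-5p (y) in 16 libraries, numbered by replicate and coloured by genotype, as normalized counts (left) and per 1000000 mature miRNA reads (right). Libraries high for one were high for the other on both scales (r = 0.89 and 0.91), and PS19 replicate 7 stands apart on the right.

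The relation of miR-219a-5p to the others depended on the scaling and the libraries. Over the 16 libraries its r was 0.25 with miR-219a-2-3p of the same hairpin (permutation test, p = 0.352), 0.37 with miR-338-5p (p = 0.159) and 0.44 with miR-338-3p (p = 0.0895), with adjusted p of 0.352, 0.191 and 0.134. Its rho with miR-338-3p was 0.62 (permutation test, p = 0.0119, adjusted p = 0.0179). Scaled to the library total, r was 0.58 and 0.57 with miR-338-5p and miR-338-3p (permutation tests, adjusted p = 0.025 for each), and scaled to the mature miRNA total 0.54 and 0.57 (permutation tests, adjusted p = 0.0351 and 0.0311). Within PS19 r was 0.79, 0.76 and 0.78 with the 3 in the order above (exact permutation tests, adjusted p = 0.00699, 0.0208 and 0.0208), whereas within WT it was −0.42, −0.23 and 0.11 (exact permutation tests, adjusted p = 0.487, 0.677 and 0.8). The SD within genotypes was 1.21 on the log2 scale for miR-219a-5p, against 0.59 for miR-219a-2-3p, 0.54 for miR-338-5p and 0.68 for miR-338-3p, and the median over the 521 tested mature miRNA rows was 0.71.

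Outside the miR-219 and miR-338 families, the mature miRNAs with the most similar pattern were identified by Pearson r over the 16 libraries, among 517 tested rows. For miR-219a-2-3p they were miR-181b-5p (0.87), miR-210-3p (0.81) and miR-8103 (0.81). For miR-338-5p they were miR-181b-5p (0.93), miR-210-3p (0.92) and miR-125b-5p (0.89), against 0.89 between miR-338-5p and miR-219a-2-3p. miR-210-3p is known for its induction by low oxygen. For miR-338-3p they were miR-17-5p (0.91), miR-21a-5p (0.89) and miR-181b-5p (0.88), where miR-17-5p belongs to a cluster with roles in the proliferation of precursors. For miR-219a-5p the r were lower, with miR-181c-3p (0.56), miR-7075-3p (0.56) and miR-451a (0.53), the last a miRNA of red blood cells. After scaling to the mature miRNA total, miR-181b-5p was still the first of these 517 rows for miR-219a-2-3p (0.85) and miR-338-5p (0.88), and miR-17-5p was the first for miR-338-3p (0.83).

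Other miRNAs with a described role in the oligodendrocyte lineage were examined as a list of 15, of which 11 were tested. By limma, 0 of the 11 were called in either direction, adjusted or not. The log2 difference, PS19 minus WT, was positive for 5 and negative for 6, with a median of −0.025. miR-9-5p, which is high in neural progenitors and lowered as oligodendrocytes mature, had 148691 ± 61162 (SD, n = 8) normalized counts in PS19 compared to 165071 ± 66216 (SD, n = 8) in WT. miR-7a-5p, with roles in the production of precursors, had 81421 ± 86576 (SD, n = 8) and 122258 ± 117354 (SD, n = 8). miR-27b-3p had 12606 ± 5796 (SD, n = 8) and 13944 ± 6453 (SD, n = 8). miR-92a-3p, of the same cluster as miR-17-5p, had 6772 ± 1730 (SD, n = 8) and 5579 ± 1013 (SD, n = 8), with a log2 difference of 0.26 (limma, adjusted p = 0.9998, and exact permutation test, p = 0.123).

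The makeup of the tissue was followed with marker miRNAs of other cells. Among neuronal markers 0 of 4 tested passed an unadjusted p under 0.05 by limma, with summed levels of 218166 to 832804 normalized counts in PS19 and 292205 to 838556 in WT. Astrocyte markers (0 of 3) summed to 2012 to 8888 in PS19 and 1963 to 6615 in WT, and vessel wall markers (0 of 4) to 15249 to 61734 and 17887 to 60763. Of the 5 microglia and leukocyte markers, 1 of 2 tested had an unadjusted p under 0.05, namely miR-155-5p, an inflammatory miRNA with 82.5 ± 51.6 (SD, n = 8) normalized counts in PS19 compared to 44.3 ± 15.8 (SD, n = 8) in WT, a log2 difference of 0.78 (limma, p = 0.0167, adjusted p = 0.9998, and exact permutation test, p = 0.0204). The list summed to 571 to 3013 in PS19 and 433 to 1539 in WT, and the 3 markers with a mean under 5 were compared by exact permutation tests without adjustment. miR-142a-3p, a leukocyte miRNA, had 3.75 ± 3.63 (SD, n = 8) normalized counts in PS19 compared to 1.02 ± 1.41 (SD, n = 8) in WT (exact permutation test, p = 0.0476), and miR-142a-5p of the same hairpin had 2.38 ± 1.72 and 2.14 ± 1.31 (p = 0.785). miR-223-3p, a defining miRNA of myeloid cells, had the lower mean in PS19, with 2.62 ± 1.35 (SD, n = 8) compared to 4.71 ± 2.82 (SD, n = 8) in WT (exact permutation test, p = 0.116).

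Tissue from outside the cortex was looked for in the same way. Choroid plexus markers (0 of 3 called) summed to 1190 to 19068 normalized counts in PS19 and 810 to 12847 in WT, with the highest value in replicate 3 of each genotype. Olfactory bulb markers (0 of 2) summed to 32.5 to 555 in PS19 and 48.8 to 3088 in WT. The highest sums were in WT replicates 5 (3088) and 8 (1890), against a WT median of 173. WT replicate 5 was also the lowest library for miR-219a-2-3p (13331), whereas WT replicate 8 had 24697, above the WT median. Whether the olfactory signal and the level of miR-219a-2-3p are linked was not tested. Red blood cell markers (0 of 2 tested, of 3) summed to 731 to 1518 and 652 to 1411. No marker of any list was at 0 in all 16 libraries, and miR-144-3p, a defining marker of red blood cells, had a mean of 0.343.

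**Figure D4:**
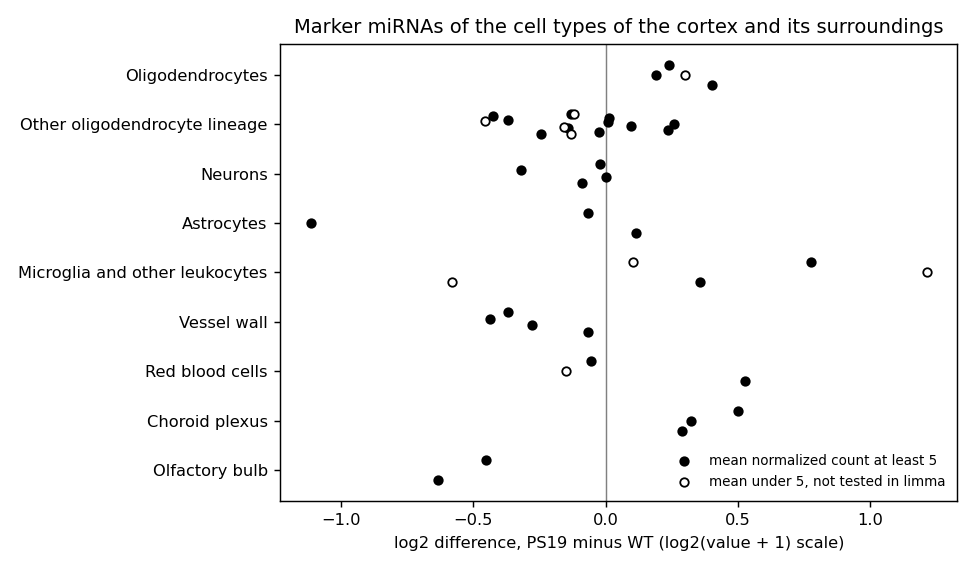
Log2 difference, PS19 minus WT, of the marker miRNAs of each cell type or tissue; filled points had a mean of at least 5 normalized counts and open points did not. The 4 oligodendrocyte points lie between 0.19 and 0.40. The highest filled point is miR-155-5p at 0.78, and the lowest is the astrocyte marker miR-193b-3p at −1.11.

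Across the 16 libraries, miR-219a-2-3p moved with the summed levels of 3 of 7 such lists, namely astrocytes (r = 0.67, rho = 0.75), microglia and leukocytes (r = 0.65, rho = 0.62) and choroid plexus (r = 0.58, rho = 0.60), with adjusted p of 0.0226, 0.0226 and 0.0428 for r over the 7 lists (permutation tests). These sums were mostly those of 1 or 2 miRNAs. miR-21a-5p had 4772 of a mean of 4883 normalized counts in the astrocyte sum and miR-146a-5p 1203 of 1274 in the microglia and leukocyte sum, while miR-1298-5p and miR-204-5p had 2434 and 1745 of 4223 in the choroid plexus sum. Without the 2 libraries farthest from the median of miR-219a-2-3p, r was 0.56, 0.50 and 0.51. For neurons r was 0.41 (permutation test, adjusted p = 0.206) with a rho of 0.58 (adjusted p = 0.0359). After scaling to the mature miRNA total, none of the 7 had an adjusted p under 0.05 (smallest 0.288), with r of 0.45, 0.52 and 0.26 and rho of 0.11, 0.20 and 0.11 for the first 3. Without the 2 farthest libraries, r on that scale was 0.12, 0.30 and −0.27. The part of these cells in the levels of miR-219a-2-3p was not tested.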

How the data were processed

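The deposited values are a normalized signal, namely read counts per feature after division by a size factor for each library by the authors. Per the methods of the study and the submitters' processing notes, reads were aligned with STAR 2.5.3a (mm10) within COMPSRA and compared with DESeq2 1.42.1. The same table held the authors' log2 fold changes with their errors, a Wald score, p-values and adjusted p-values, which were not used. Whole reads were recovered by dividing by the smallest value above 0 (100% whole within 0.001 of a read). For WT replicates 4 and 6 this rests on weaker evidence, since their reads had a value of nearly 1. No column of library values was left out (0 columns).

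limma 3.58.1 (R 4.3.3; lmFit, eBayes with trend, genotype only) was fitted on log2(value + 1) of the 6024 features with a mean of at least 5, with Benjamini-Hochberg adjustment over all of them. Fold changes on this scale understate those of low rows. Single values were tested by exact permutation (two-sided, 12870 assignments, smallest possible p 0.0001554), and correlations by permutation with 100000 resamples (Python 3.11.15, numpy 2.4.6, scipy 1.17.1). limma was checked on simulated counts.

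The miRNAs, lists and tests were chosen with earlier results of these data known. Named were the 4 miRNAs, other rows of the families, the 3 mature miRNAs with the highest r for each, and of the lineage list those with an unadjusted p under 0.05 and the 4 highest means. Sequences are from RefSeq (GRCm38.p6) and host genes from GENCODE M21. For 3 of the 4 miRNAs a RefSeq mature sequence was matched. Alternatives were DESeq2 1.42.0 and edgeR 4.0.16 on recovered reads, other scalings, filters, pseudocounts of 0.5 and 5, array weights, an exact rank test, a replicate block, the code letter as a term, and each library left out.

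Recovered reads of the 56 pairs of libraries within a genotype gave a chi-square of 43.5 to 569.9 for each degree of freedom. Repeated sequencing of 1 library would give about 1, and an identical column less. Pairs across genotypes were not examined, and each library was counted as 1 sample.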

Additional observations from a re-analysis of the deposited data

Results flagged for a closer look

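Of 54 group values examined, 8 had a highest library that stood apart from its group of 8 by Dixon's gap-to-range criterion. About 2.7 would be given by chance if the values were independent. They are not, since they include the same rows on several scales and the sum of the 4 miRNAs, so these numbers cannot be compared directly. The precursor row mir-219a-2 had 818.7 normalized counts in WT replicate 1, against 436.5 in the next WT library. Per 1000000 mature miRNA reads, PS19 replicate 7 was highest for miR-219a-2-3p (16997 against 9174), for miR-338-3p (31.8 against 18.3) and for the sum of the 4 miRNAs (17407 against 9423), where mature miRNA rows held 20.03% of its signal. miR-338-3p per 1000000 reads of the library was 7.78 in WT replicate 8, against 4.62 in the next. Summed choroid plexus markers were 19068 normalized counts in PS19 replicate 3, against 5391, and 12847 in WT replicate 3, against 4424. The log2 ratio of miR-219a-2-3p to miR-219a-5p was 14.3 in PS19 replicate 6, against 13.0, and miR-219a-5p had a count of 0 in that library.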

How the results depend on the processing

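miR-219a-5p had 0 to 10 reads per library, so its values are the least precise of the 4. For genotype, miR-219a-2-3p, miR-338-5p and miR-338-3p had no unadjusted p under 0.05 in 31 alternatives each. Nor had miR-219a-5p in the 27 run for it, which do not include a mean of at least 20 or miRNA rows only. Over these alternatives the log2 difference ranged from 0.21 to 0.53 for miR-219a-2-3p, from 0.058 to 0.37 for miR-338-5p, from −0.068 to 0.35 for miR-338-3p and from 0.032 to 0.68 for miR-219a-5p. The sign turned only for miR-338-3p when the code letter was in the model (−0.068, adjusted p = 0.9999 by limma), and the cause was not tested. Of the other lineage miRNAs, 0 passed in each alternative.

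Leaving out 1 library gave log2 differences of 0.28 to 0.53, 0.11 to 0.37, 0.042 to 0.35 and 0.032 to 0.61 for the 4 miRNAs in that order, and 167 to 322 features at an unadjusted p under 0.05.

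The 241 features at an unadjusted p under 0.05 became 122 of 6669 with scaling to the mature miRNA total, 680 of 17088 without a filter, 136 of 2510 with a mean of at least 20, 16 of 748 among miRNA rows only, 418 with array weights and 124 with the letter as a term. The numbers of features tested differed in the first 4 of these, and the cause was not tested for the others. DESeq2 called 15 features at an adjusted p under 0.05.

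The replicate numbers were not taken to pair the libraries, since the labels tie them to nothing shared and not every correlation of same-numbered deviations was over 0.1. They were all positive, from 0.045 to 0.46, with 2 of 8 PS19 libraries closest to their own number. With the replicate number as a block, 419 features had an unadjusted p under 0.05 and 0 an adjusted one, and none of the 4 miRNAs was called (miR-219a-2-3p 0.40, adjusted p = 0.742 by limma). The precursor row mir-219a-2 had an unadjusted p under 0.05 with the block (0.55, adjusted p = 0.678 by limma).

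Correlations of miR-219a-2-3p with miR-338-3p (0.58) and of the arms of miR-338 (0.79) missed the threshold within WT, and the former also on the mature miRNA scale without PS19 replicate 7 (0.48), chosen after the data were seen, as was the split by code letter G. With miR-219a-5p, correlations passed it within PS19 for miR-219a-2-3p (0.79), miR-338-5p (0.76) and miR-338-3p (0.78). They also passed it with scaling to the library total (0.58 and 0.57 for the miR-338 arms, 5p first) and to the mature miRNA total (0.54 and 0.57), and for miR-338-3p without WT replicate 1 (0.56). The sign turned within WT for miR-219a-2-3p (−0.42) and miR-338-5p (−0.23), and for miR-219a-2-3p without the 2 libraries farthest from the median (−0.018). The cause was not tested. Leaving out 1 library, r with miR-219a-5p ran from 0.13 to 0.47, 0.27 to 0.50 and 0.38 to 0.56, respectively.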
